A study of Rosa hybrid cultivar with 12 samples.

Results

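The comparison described here asked what a synthetic auxin did to the transcripts of rose buds kept on plentiful sugar. It set buds given 100 mM sucrose with 1 µM NAA (1-naphthaleneacetic acid, a synthetic auxin) against buds given 100 mM sucrose alone. Each group had 3 libraries, which makes 6 of the 12 libraries of the series. The text of the series speaks of 2 biological replicates, while the titles number 3, and n = 3 below follows the titles. All buds came from a wild-type hybrid rose cultivar, and every group of the series received sucrose. The remaining libraries had 10 mM sucrose, without NAA (3 libraries) or with 1 µM NAA (3 libraries). Each group held 1 library harvested on 20 June, 1 on 20 August and 1 on 20 October, so libraries were paired by harvest date. For the June pair the labels give planting on 2 July without NAA and 2 August with NAA, both after the harvest. If these dates are right, planting date and NAA cannot be told apart in June. The August libraries all carry a planting date of 29 August, also after the harvest, and the October libraries one of 20 October, the harvest day. In the June pair at 10 mM sucrose, planting is given as 2 May without NAA and 2 June with it.

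In flowering plants, auxin made in the shoot apex moves down the stem and holds back the outgrowth of the buds below it, and sugars promote that outgrowth. Within a cell, auxin is perceived by TIR1/AFB receptors, which mark the Aux/IAA repressors for degradation and so release the auxin response factors. Known early targets are the Aux/IAA, GH3 and SAUR families. The title of the series speaks of budburst, while the tissue label says flower bud. The files give gene IDs and do not pair them with names, so neither these families nor markers of the tissue could be looked up, and genes appear below by ID. These are whole buds, in which fewer cells of a type and less RNA per cell cannot be told apart.

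Gene counts ran from 8229391 to 14676233 in the 6 libraries at 100 mM sucrose, and from 7369267 to 16757019 over all 12. Of the 12 libraries, replicate 1 of 10 mM sucrose with NAA stood apart: its 100 most counted genes held 24.9% of its counts, against 14.1% to 16.9% elsewhere. It is no member of the comparison, but it enters the shared estimate of the spread. Without it the number of genes called at 100 mM was 3693 in place of 1949.

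NAA raised 1136 genes (4.68% of 24267 tested) and lowered 813 (3.35%) at 100 mM sucrose, 8.03% in all. Most changes were moderate. The median log2 fold change was 0.98 among the genes that rose (interquartile range 0.73 to 1.46) and -0.95 among those that fell (-1.26 to -0.74). Rises reached further than falls. At least a 2-fold change (1 on the log2 scale) was fitted for 554 of the genes that rose and 374 of those that fell, and a change of at least 3 on the log2 scale for 42 and 16. The calls came from edgeR's quasi-likelihood test with the harvest date as a block, at a Benjamini-Hochberg adjusted p under 0.05. Without the block it called 205 genes higher and 70 lower (1.13%), all of them among the blocked calls with the same sign. Leaving out replicate 1, 2 or 3 of the NAA group gave 432, 854 and 1248 genes, leaving out replicate 1 or 2 of the group without NAA gave 604 and 346, and leaving out June, August or October altogether gave 622, 223 and 782. The share of calls that were rises was 58.3% in the fit to all libraries and ran from 48.9% to 80.6% over the alternatives. From the 6 libraries at 100 mM alone, edgeR called 1427 genes higher and 1492 lower, and without replicate 3 of the group without NAA it called 1195 and 1191. No gene called both in the fits with a library or date left out and in the fit to all libraries changed sign.

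Called genes were found at all levels. Among genes with a mean level over 100 CPM (counts relative to the library size, with TMM scaling) over all 12 libraries, 192 of 2133 rose (9%) and 59 fell (2.77%). Between 10 and 100 CPM the shares were 6.56% and 4.61%, and between 1 and 10 CPM they were 2.62% and 2.69%. Under 1 CPM, where counts are few, 13 genes of 2191 rose and 18 fell. The mean behind these classes includes the libraries in which the rising genes were high and the falling genes low, and power to call a change grows with counts, so no balance of rises and falls is read from them. By the level in their own higher group, 118 genes that rose were over 100 CPM in every library with NAA. Of those that fell, 101 were over 100 CPM in every library without it. The matching counts over all tested genes were not taken, so no balance is read from these either.

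**Figure D1:**
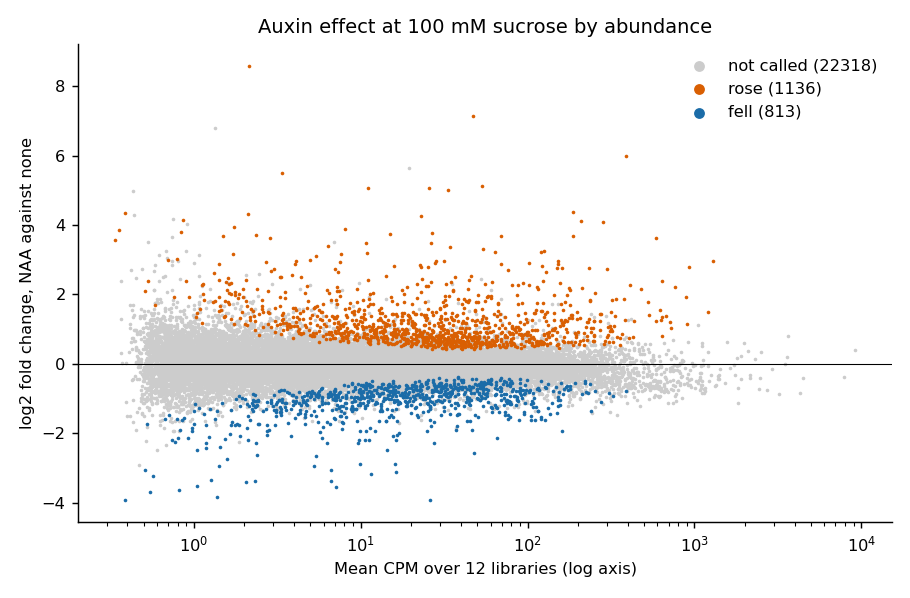
Log2 fold change with NAA at 100 mM sucrose (y axis) against mean CPM over the 12 libraries (x axis, log scale), 1 point per tested gene. The 1136 genes that rose (orange) reach further from 0 than the 813 that fell (blue).

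Some called genes were near silence in their lower group, with no level required in the other. Of the genes that rose, 65 were under 1 CPM in every library without NAA, and of those that fell, 29 were under 1 CPM in every library with it. No share of all tested genes stands beside these counts, so they are not read as many or few. Only 1 gene that rose, gene:RC6G0499500, had 0 counts in all 3 libraries without NAA. It had 49, 81 and 11 counts with NAA in June, August and October (edgeR adjusted p = 0.0116, and 0.0723 without the block). Pooled over dates, with a floor of 3 counts for the group without NAA, this is at least 34-fold higher. That bound allows for counting error in the zeros and leaves out the spread between dates: 5.11, 5.20 and 0.71 CPM with NAA. At 10 mM sucrose the gene had 0, 0 and 1 counts without NAA and 59, 29 and 30 with it. This gene was named after its values had been seen, for its 0 counts without NAA at 100 mM. It passed the count filter only through libraries with NAA. Its adjusted p and fold bound therefore describe the call and are no separate support. Its call was also lost without June (adjusted p = 0.0531), without October (0.0608) and without replicate 1 or 2 of the group without NAA (0.0586 and 0.0613).

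The 2 rising and 2 falling genes with the largest difference in mean CPM, among called genes with at least a 2-fold change and 1 direction on all dates, show how the libraries behaved. The first, gene:RC3G0027700, stood at 317.6, 522.6 and 508.1 CPM without NAA in June, August and October. With NAA it stood at 1179, 1658 and 991.3 CPM. The groups did not overlap, and the lowest library with NAA, from October, was still above the highest without it. Its mean rose from 449.4 ± 114.4 to 1276 ± 343.6 CPM (SD, n = 3), a log2 fold change of 1.49 (SE 0.254, edgeR adjusted p = 0.00757). This call was lost without the block (adjusted p = 0.0633), without August (0.109) and without replicate 2 of the group without NAA (0.0602).

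The other rising gene, gene:RC5G0605600, was at 123.9, 111.8 and 70.4 CPM without NAA in June, August and October. With NAA it was at 1773, 631.2 and 308.8 CPM. June was the highest library in both groups and October the lowest, so the NAA group was wide: 904.2 ± 769.1 CPM, against 102.1 ± 28.0 without NAA (SD, n = 3). This was a log2 fold change of 2.96 (SE 0.439, adjusted p = 0.00448 by edgeR), and it stayed called in each of 21 alternative fits, with adjusted p up to 0.039.

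Of the falling genes, gene:RC1G0025000 held nearly the same level on all dates without NAA, at 479.3, 437.1 and 460.5 CPM. With NAA it was at 104.4, 111.8 and 153.7 CPM. All libraries with NAA lay far below all without it, with October the least lowered. The mean went from 458.9 ± 21.1 to 123.3 ± 26.6 CPM (SD, n = 3), which is -1.92 on the log2 scale (SE 0.326, edgeR adjusted p = 0.00742). Without replicate 1 of the NAA group or replicate 2 of the group without it, the adjusted p was 0.0553 and 0.0636.

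The second falling gene, gene:RC2G0255200, was at 525.1, 591.9 and 495.4 CPM without NAA and at 172.7, 187.7 and 301.9 CPM with it, in June, August and October. Here too the groups did not overlap and October was the least lowered. Its mean went from 537.5 ± 49.4 to 220.7 ± 70.7 CPM (SD, n = 3), a log2 fold change of -1.36 (SE 0.225, edgeR adjusted p = 0.00681). The call was lost without the block (adjusted p = 0.0642), without June (0.0556), without August (0.087), without replicate 1 of the NAA group (0.0517) and without replicate 2 of the group without NAA (0.0522).

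**Figure D2:**
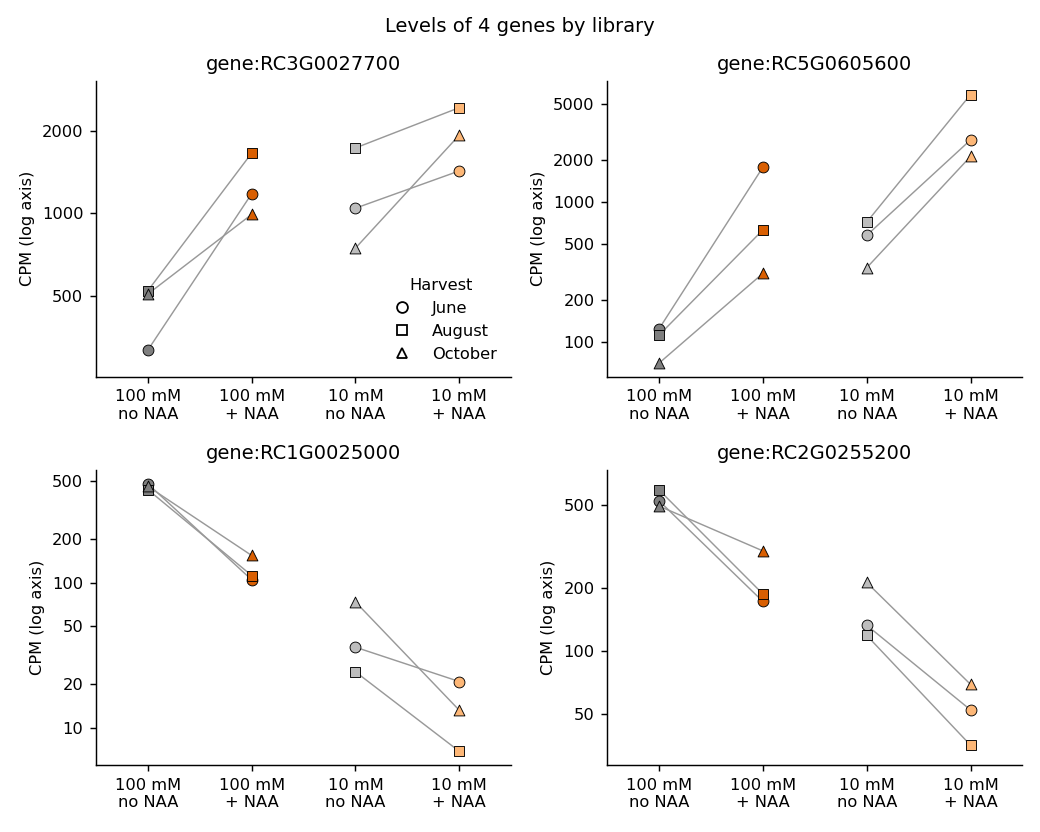
CPM (y axis, log scale) of 4 genes in each of the 12 libraries, by group (x axis), with marker shape for the harvest month and lines joining libraries of 1 date at 1 sucrose dose. At 100 mM sucrose every library with NAA lies above every library without it for gene:RC3G0027700 and gene:RC5G0605600, and below for gene:RC1G0025000 and gene:RC2G0255200. The genes were chosen for large differences between these libraries at 100 mM.

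Over all called genes the direction was shared by the dates. In the same-date pairs, 1131 of the 1136 genes that rose were higher with NAA on all 3 dates, and 812 of the 813 that fell were lower on all 3. Every library with NAA was above every library without it for 987 of the genes that rose (13.6% of all tested genes showed this), and below for 664 of those that fell (14% of all tested genes). These libraries had chosen the genes, so these counts describe the calls and are no separate support.

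A date that had no part in the choice gave the same directions. Genes called from the other dates were looked up in the pair of the date left out. In June, 412 of 413 genes that had risen on the other dates were higher with NAA, and 206 of 209 that had fallen were lower, while 50.4% of all tested genes were higher and 49.6% lower. In August these were 175 of 177 and 44 of 46, again beside 50.4% and 49.6% of all tested genes. In October 402 of 434 were higher and 331 of 348 lower, beside 50.1% and 49.9%.

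**Figure D3:**
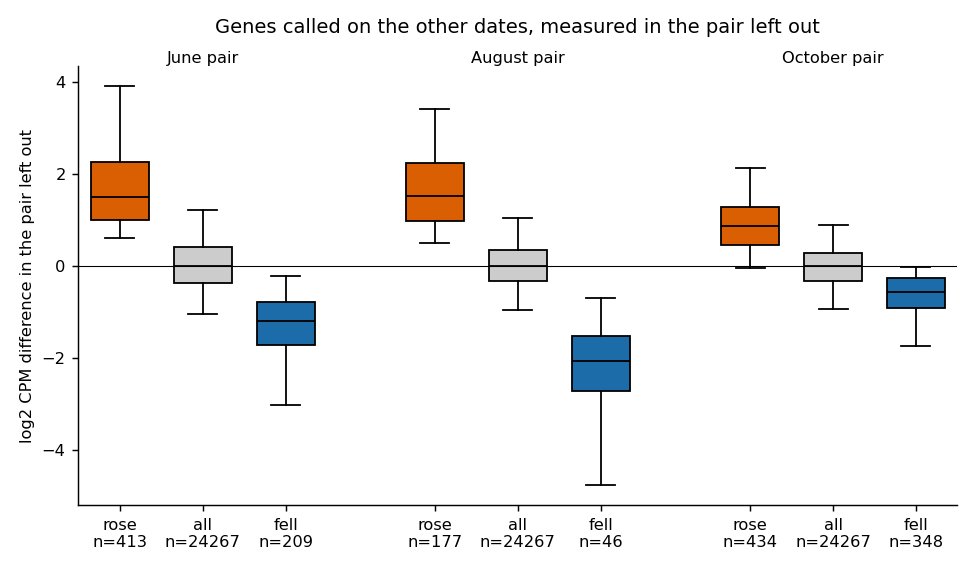
Difference in log2 CPM, with NAA minus without, in the pair of 1 harvest date (y axis) for genes that rose (orange) or fell (blue) in the fit to the other dates, and for all tested genes (grey). Boxes span the interquartile range with the median as a line, and whiskers reach the percentiles 5 and 95. Medians of the genes that rose are 1.49 in June, 1.53 in August and 0.88 in October, and the gene lists differ between dates.

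The size of the response differed between dates, with October the smallest. For the genes that rose on the other dates, the October pair gave a median log2 difference of 0.88, against 1.58 in the fit that chose them. For the genes that fell it gave -0.56, against -1.36. In June the left-out pair gave 1.49 for genes that rose, against 1.21 in the fit, and -1.20 for genes that fell, against -1.27. August gave 1.53 against 1.92, and -2.07 against -1.91. Pair values are differences of log2 CPM with a prior count of 2, while fit values are edgeR estimates. The genes were called on the fit values, which raises these. A gap between pair and fit is therefore not by itself the effect of a date. The October library without NAA differed from the other libraries at 100 mM in other measures: rows that name no gene held 23.2% of its reads, against at most 20.6%, and multimapping reads 5.44%, against 3.51% to 4.29%. It also had the fewest gene counts, 8229391, and the highest share in its 100 most counted genes, 16.9% against 14.1% to 15.7%. The part of these measures in the October values was not tested.

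Gene lists from the contrast at 10 mM sucrose, which shares no library with this one, also gave October as the smallest. Both contrasts came from 1 fit, with shared spread and date terms. The 3026 genes that NAA raised at 10 mM sucrose had a median log2 difference at 100 mM of 0.70 in June, 0.57 in August and 0.38 in October. The 3275 that it lowered at 10 mM had -0.64, -0.55 and -0.21. Of the genes raised at 10 mM, 96.2% were higher with NAA in the June pair at 100 mM, 93.9% in August and 82.3% in October. With 1 pair of libraries per date, a difference between dates has no replicate, and it was not tested.

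At 10 mM sucrose the medians of the genes called at 100 mM lay closer together. The 1136 genes that rose at 100 mM had a median log2 difference with NAA at 10 mM of 0.86 in June, 0.94 in August and 0.91 in October. The 813 that fell had -1.08, -1.21 and -1.04. The same genes at 100 mM, in the libraries that chose them, stood at 1.15, 0.92 and 0.76, and at -1.10, -1.10 and -0.62.

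On the first principal component of the 6 libraries at 100 mM, which held 49.6% of the variance of log2 CPM, the NAA library of October was also set apart. The libraries with NAA scored 71.3 in June, 49.6 in August and -0.77 in October. Those without NAA scored -29.4, -35.8 and -55.0. NAA libraries therefore lay above the library of their own date each time, and the October one lay nearest to the group without NAA.

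Libraries with NAA varied more among themselves than those without it. The SD of log2 CPM over the 3 libraries had a median over tested genes of 0.263 with NAA and 0.217 without, and 58.8% of genes were more variable with NAA. Among the genes that rose these values were 0.390 and 0.240, and among those that fell 0.442 and 0.224. The SD includes the differences between harvest dates, and no test was made.

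The genes that rose held 3.13% ± 0.291 of gene counts at 100 mM sucrose without NAA and 7.32% ± 1.81 with it (SD, n = 3). With NAA the share was 9.01% in June, 7.54% in August and 5.41% in October, against 3.25%, 3.35% and 2.80% without it. The genes that fell went from 4.42% ± 0.146 to 2.52% ± 0.592 (SD, n = 3), with 2.07%, 2.30% and 3.19% on the 3 dates with NAA. The separation at 100 mM follows from how the lists were chosen. In the 10 mM libraries, which lie outside that contrast and entered the choice only through the shared spread and date terms, the genes that rose held 6.04% ± 0.973 without NAA and 12.5% ± 3.46 with it, and those that fell 2.93% ± 0.340 and 1.33% ± 0.327 (SD, n = 3). The share of the rising genes at 10 mM without NAA, 5.12% to 7.06%, overlapped with that at 100 mM with NAA.

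**Figure D4:**
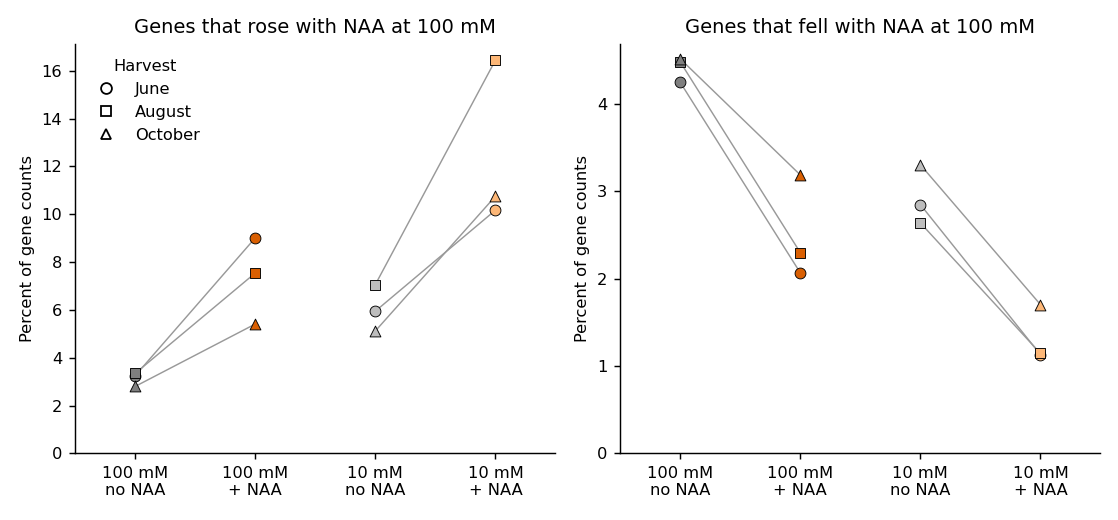
Percent of each library's gene counts (y axis, from 0) held by the 1136 genes that rose with NAA at 100 mM sucrose (left) and the 813 that fell (right), by group (x axis), with marker shape for the harvest month and lines joining libraries of 1 date. At 10 mM sucrose, in libraries outside the contrast that chose the lists, the share is higher with NAA on the left and lower on the right on every date.

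Most of the genes called at 100 mM also moved with NAA at 10 mM sucrose, where 26% of tested genes were called. Of the 1136 that rose, 954 (84%) were called higher at 10 mM, where 12.5% of all tested genes were. Of the 813 that fell, 667 (82%) were called lower at 10 mM, where 13.5% of all tested genes were. The shared genes made up 31.5% of the 3026 that rose and 20.4% of the 3275 that fell at 10 mM. Of the genes called at 100 mM, 181 that rose and 146 that fell were not called at 10 mM, and 173 and 130 of these had the same sign there. All tested genes were divided nearly evenly at 10 mM, with 51.8% higher. Both lists came from 1 fit, so they share the estimate of the spread and the date terms. From the 6 libraries of each dose alone, 2919 genes were called at 100 mM and 4058 at 10 mM. Of these, 1786 were called in the same direction at both doses, a smaller share of the 100 mM list than in the fit to all libraries. Without the block, 196 genes were called in the same direction at both doses in place of 1621. Leaving out replicate 1 or 2 of 10 mM sucrose without NAA gave 1000 and 1032, and leaving out replicate 1 of 10 mM with NAA gave 2986. At 100 mM, leaving out replicate 1, 2 or 3 with NAA gave 382, 736 and 1066, and leaving out replicate 1 or 2 without NAA gave 504 and 294. Without June, August or October it was 516, 169 and 598.

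Effect sizes depended on which dose had chosen the genes. Genes that rose at 100 mM had a median log2 fold change of 0.98 there and 0.92 at 10 mM, and genes that fell had -0.95 and -1.19. Genes that rose at 10 mM had 0.86 there and 0.56 at 100 mM, and genes that fell had -0.89 and -0.47. Each list was chosen on its own dose, which raises the size there.

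**Figure D5:**
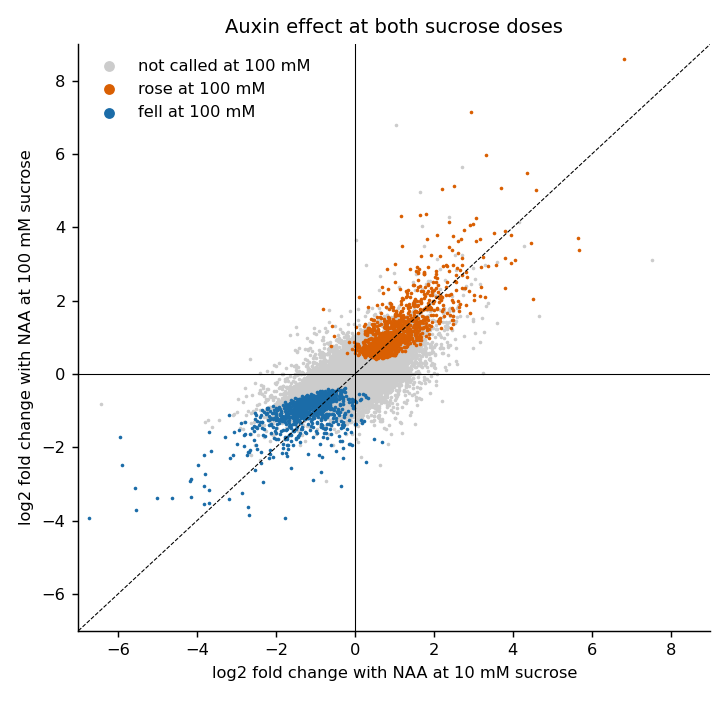
Log2 fold change with NAA at 100 mM sucrose (y axis) against that at 10 mM (x axis), 1 point per tested gene, with equal change as a dashed line. Of the genes that rose at 100 mM (orange), 1127 of 1136 lie to the right of 0, and of those that fell (blue), 797 of 813 lie to the left.

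The difference between the auxin effects was tested gene by gene, and edgeR called 0 genes (0% of tested genes). Before adjustment 1683 genes had a p under 0.05, and the smallest adjusted p was 0.717. DESeq2 with the block called 8, of which 6 had the higher auxin effect at 100 mM. A call missed does not show equal effects. The 95% interval of the difference stayed within 2-fold in either direction for 967 of the 1949 called genes (49.6%), and for 12351 of all 24267 (50.9%).

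A few genes went opposite ways. Among the 1136 that rose at 100 mM, 5 were higher with NAA in all pairs at 100 mM and lower in all pairs at 10 mM. Of all 24267 tested genes, 190 were. The reverse held for 5 of the 813 that fell and for 172 of all tested genes. These bases are unlike, because nearly all called genes kept 1 sign on all dates at 100 mM. Among genes higher in all pairs there, it was 5 of 1131 that rose and 190 of 5993 tested genes. Among genes lower in all pairs there, it was 5 of 812 that fell and 172 of 5888 tested genes. The shares were not tested. Only gene:RC3G0146600, named after its values were seen, was called higher at 100 mM and lower at 10 mM, and no gene was called the other way round. At 100 mM it went from 9.68 to 12.1 CPM in June, from 11.2 to 20.0 in August and from 14.5 to 31.5 in October. At 10 mM it went from 57.3 to 36.1, from 49.5 to 45.2 and from 132.5 to 69.3 CPM. The groups overlapped at both doses, with means of 21.2 ± 9.74 CPM with NAA and 11.8 ± 2.44 without it at 100 mM, and 50.2 ± 17.2 and 79.7 ± 45.8 CPM at 10 mM (SD, n = 3). By edgeR the log2 fold change at 100 mM was 0.78 (SE 0.205, adjusted p = 0.0426). At 10 mM it was -0.60 by the same test (SE 0.191, adjusted p = 0.0391). The rise at 100 mM was no longer called in 13 of 21 alternative fits, with adjusted p up to 0.301.

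The gene with the lowest p for the difference by DESeq2, gene:RC3G0349700, was also named after its values were seen. At 100 mM it stood at 5.50, 8.10 and 27.4 CPM without NAA in June, August and October, and at 23.8, 43.3 and 52.8 CPM with it. At 10 mM it stood at 6.69, 12.5 and 16.9 CPM without NAA, and at 4.01, 4.36 and 14.4 CPM with it. NAA libraries were thus higher on every date at 100 mM and lower on every date at 10 mM, while levels climbed from June to October in all 4 groups. Its log2 fold change by edgeR was 1.79 at 100 mM (SE 0.280, adjusted p = 0.00525), and at 10 mM it was -0.81 (SE 0.297, adjusted p = 0.0657). The difference of 2.60 (SE 0.411) had an adjusted p of 9.29e-05 by DESeq2 and 0.717 by edgeR. Its rise at 100 mM was lost without the block (adjusted p = 0.204) and without August (0.0508).

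The 4 genes chosen for their change in CPM moved the same way at 10 mM. There gene:RC5G0605600 changed by 2.71 on the log2 scale (SE 0.427, adjusted p = 0.00199 by edgeR), and its level went from 544.5 ± 191.6 to 3584 ± 1998 CPM (SD, n = 3). For gene:RC3G0027700 the change was 0.75 (SE 0.250, adjusted p = 0.048 by edgeR), with means of 1174 ± 504.8 CPM without NAA and 1928 ± 499.8 CPM with it (SD, n = 3). Of the falling pair, gene:RC1G0025000 changed by -1.71 (SE 0.344, adjusted p = 0.00549 by edgeR). The change of gene:RC2G0255200 was -1.57 (SE 0.228, adjusted p = 0.00146 by edgeR). At 10 mM they stood lower in both groups: gene:RC1G0025000 at 44.5 ± 25.7 CPM without NAA and 13.6 ± 6.97 with it, gene:RC2G0255200 at 154.9 ± 50.8 and 52.2 ± 16.9 CPM (SD, n = 3). The difference between the auxin effects had a 95% interval of -0.033 to 1.52 for gene:RC3G0027700 and -1.02 to 1.51 for gene:RC5G0605600. For gene:RC1G0025000 it ran from -1.23 to 0.81 and for gene:RC2G0255200 from -0.48 to 0.90.

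Some called genes were listed next to each other in the files. Where a gene that rose was followed by a tested gene in the next row, that gene had also risen in 81 of 753 cases (10.8%, against 4.68% of tested genes). For genes that fell this was 46 of 550 (8.36%, against 3.35%). These shares were not tested, and most called genes were not followed by a gene called the same way. The row order was not checked against a genome, and multimapping reads, 3.51% to 5.44% of reads in these 6 libraries, make the level of near-identical copies uncertain. By the prefix of the ID, the share that rose ran from 3.58% in the RC0G series to 5.15% in RC4G, and the share that fell from 2.44% in RC1G to 4.04% in RC6G.

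Of the 22318 genes not called at 100 mM, 14918 (66.8%) had a 95% interval of the auxin effect within 2-fold in either direction. For the rest, a 2-fold change was not excluded at this depth and spread.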

How the data were processed

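The authors deposited 1 file per library with raw whole-number counts per gene, in 3 columns (strand ignored, forward, reverse), per the file headers. Per the labels' protocols, polyA RNA was made into stranded paired-end libraries. The submitters' processing notes name TopHat2 and Bowtie2. Their roles and versions, the genome build and the annotation were not given in the sources used here. Only the reverse column entered the tests. Summary rows naming no gene (17.3% to 23.2% of reads per library) were left out.

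The tests used edgeR 4.0.16 in R 4.3.3 (TMM, quasi-likelihood test). The filter filterByExpr (minimum count 10, minimum total 15) kept 24267 of 42307 genes, holding 99.8% of gene counts. All 12 libraries were fitted with 1 mean per group and the replicate number as a block. The labels give equal numbers 1 harvest date. Deviations from group means correlated at 0.182 to 0.317 over the 3 same-date pairs at 100 mM sucrose (mean 0.298 over 18 pairs of the series, 16 above 0.1). The others were the October library without NAA at 100 mM against October at 10 mM: 0.0723 with NAA and 0.0647 without. Log2 CPM used a prior count of 2. In simulated counts of 24267 genes, a small set was changed at 100 mM, and 31% of its 2-fold and 81% of its 4-fold changes were called. No date or sucrose effect was simulated, and far fewer genes changed than were called here. These rates therefore do not carry over to the data. DESeq2 1.42.0 and other settings served as alternatives. The labels do not say whether libraries came from separate plants. The p-values of the main fit therefore measure only the spread between these libraries that is left after group means and harvest dates. That spread is shared over the 4 groups.

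The comparison, lists and rules were chosen with earlier results of these data known. The rule for naming genes took 2 IDs per direction with the largest difference in mean CPM among called genes of at least 2-fold change and 1 sign on all dates. A set of 3 further genes was named after values were seen, as stated there.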

Additional observations from a re-analysis of the deposited data

Results flagged for a closer look

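Forward-strand counts entered the comparisons above only through the alternative with strand ignored. They took a larger share of stranded gene counts with NAA. At 100 mM sucrose the forward share was 4.27%, 3.85% and 3.78% with NAA in June, August and October, and 3.40%, 3.37% and 3.75% without it. The means were 3.97% ± 0.266 and 3.51% ± 0.212 (SD, n = 3). The exact permutation test (two-sided) gave p = 0.1, the smallest that 3 against 3 unpaired libraries allow. Here and for the uncalled genes below, the test left out the pairing by harvest date. In October the difference was 0.0268 percentage points. Over genes not called at 100 mM, the share was 2.41% ± 0.136 with NAA and 1.95% ± 0.125 without it (SD, n = 3; two-sided exact permutation p = 0.1), and higher with NAA on each date, by 0.236 to 0.719 points. In the 10 mM libraries it was higher with NAA on each date too, by 0.230 to 0.685 points. The cause was not tested.

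For gene:RC3G0146600 and gene:RC3G0349700, every NAA library was above the library of its date at 100 mM sucrose and below it at 10 mM. The difference between the auxin effects was 1.38 for gene:RC3G0146600 (SE 0.280) and 2.60 for gene:RC3G0349700 (SE 0.411). In the edgeR test of the difference itself both had an adjusted p of 0.717. Groups of 3 libraries were too small to test whether a single library was an outlier. Without any 1 of the 6 libraries at 100 mM, the rise of gene:RC3G0146600 there was no longer called (edgeR adjusted p 0.0622 to 0.155). That of gene:RC3G0349700 stayed called in these fits (edgeR adjusted p up to 0.0418).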

How the results depend on the processing

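Alternatives were the fit with no replicate block, DESeq2, DESeq2 size factors, no low-count filter, the 6 libraries of a dose alone, counts with strand ignored, and leaving out each library or each date. The number called at 100 mM was 275 without the block and ran from 223 to 3693 when a library or a date was left out. It stayed within 1.5 times of 1949 in the other alternatives. At 10 mM it was 6301 with the block, 3510 without it, 4058 from the 6 libraries of that dose alone, and 1455 to 6957 with a library or a date left out. Genes called in the same direction at both doses numbered 196 without the block and 169 to 2986 with a library or a date left out. The block pairs libraries by harvest date, and it made 1949 calls where the fit without it made 275. The difference between the auxin effects had 8 calls by DESeq2 and 0 in every edgeR fit. No named gene changed sign at 100 mM in any of 21 alternatives. The 4 genes chosen by their change in CPM were called in 18, 21, 19 and 16 of these, for gene:RC3G0027700, gene:RC5G0605600, gene:RC1G0025000 and gene:RC2G0255200. The gene gene:RC3G0349700 was called in 19, gene:RC6G0499500 in 16 and gene:RC3G0146600 in 8. The cause of these moves was not tested. Fits with a library or a date left out have fewer libraries.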
